A study of Mus musculus with 6 samples.

Results

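The vascular endothelial growth factor (VEGF) family was described across the cells of the mouse heart after coronary ligation. It was taken as 10 genes found by symbol among the 32285 genes of the files: the ligands Vegfa, Vegfb, Vegfc, Vegfd and Pgf, the receptor tyrosine kinases Kdr, Flt1 and Flt4, and the co-receptors Nrp1 and Nrp2. Wild-type (WT) male C57BL/6JRj mice and knockout (KO) male mice of the strain B6.Cg-Trpm4tm1.2-PG, in which the calcium-activated cation channel gene Trpm4 is targeted, were operated on at an age of 8 to 12 weeks. Hearts were taken 24 h after a sham operation, or 24 h or 72 h after the left anterior descending (LAD) branch of the coronary arteries had been tied off. Ventricles were digested with thermolysin and papain, filtered on meshes that retain cardiomyocytes, and the live non-cardiomyocytes of 4 hearts were pooled into 1 droplet 3' RNA library for each of the 6 groups. No difference between groups therefore has a replicate check, the 4 mice of a pool cannot be told apart, and the intervals given are exact 95% intervals for counting error only.

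VEGF-A is the main growth, survival and permeability factor of vascular endothelium and acts through the kinase VEGFR2, the product of Kdr. VEGFR1, the product of Flt1, binds VEGF-A, VEGF-B and placental growth factor (Pgf) and, in its membrane-bound and soluble forms, limits how much VEGF-A reaches VEGFR2, while VEGF-C and VEGF-D act mainly through VEGFR3 (Flt4) on lymphatic vessels. Neuropilins 1 and 2 bind VEGFs together with these kinases and also bind class 3 semaphorins. Counts per gene from the 3' end do not separate isoforms, so soluble and membrane-bound Flt1 cannot be told apart, and levels were compared between classes or libraries for the same gene and not between genes.

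The sequences upstream of 3 members are shown because the results below turn on the level of the ligand Vegfa in stromal and myeloid cells and of its kinases Kdr and Flt1 in endothelium. Each is the stretch of 250 bases before a transcription start annotated by RefSeq on GRCm38.p6, read 5' to 3' on the strand of the gene, which is the minus strand for all 3. Capitals mark every match, on either strand, to the hypoxia response core (ACGTG or GCGTG), the AP-1 site (TGANTCA), the cyclic AMP response element (TGACGTCA), the Sp1 site (GGGCGG) or the ETS site (AGGAAG). The windows lie at chr17:46032378-46032627 for Vegfa, chr5:75978456-75978705 for Kdr and chr5:147726012-147726261 for Flt1.
Vegfa: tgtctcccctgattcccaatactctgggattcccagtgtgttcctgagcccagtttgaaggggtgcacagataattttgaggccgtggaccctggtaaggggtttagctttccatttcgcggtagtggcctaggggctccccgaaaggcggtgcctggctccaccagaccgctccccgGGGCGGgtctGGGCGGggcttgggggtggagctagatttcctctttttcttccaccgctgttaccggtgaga
Kdr: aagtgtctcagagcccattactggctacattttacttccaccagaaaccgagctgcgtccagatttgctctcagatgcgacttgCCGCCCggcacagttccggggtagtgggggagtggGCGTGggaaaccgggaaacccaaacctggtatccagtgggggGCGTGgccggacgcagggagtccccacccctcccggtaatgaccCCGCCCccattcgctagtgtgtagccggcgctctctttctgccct
Flt1: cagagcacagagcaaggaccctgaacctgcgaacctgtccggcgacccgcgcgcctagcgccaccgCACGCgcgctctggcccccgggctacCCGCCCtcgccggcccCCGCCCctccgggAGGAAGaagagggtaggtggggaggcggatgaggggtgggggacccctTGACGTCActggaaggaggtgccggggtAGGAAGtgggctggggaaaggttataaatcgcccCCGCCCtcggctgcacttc
The Vegfa window held 2 Sp1 sites and no match to the other 4 motifs. A second Vegfa start, at chr17:46025164-46025413, had 2 hypoxia core matches and 1 Sp1 site in its window. The Kdr window held 2 hypoxia cores, of the form GCGTG, and 2 Sp1 sites on the opposite strand (CCGCCC). In the Flt1 window there was 1 cyclic AMP response element, 81 to 74 bases before the start, with 1 hypoxia core, 3 Sp1 sites and 2 ETS sites. The first window of Pgf, not printed because it runs over an annotated exon, held 1 hypoxia core and 2 Sp1 sites. Of 32851 mouse promoter windows of the same length, 38.6% held a hypoxia core, 32.7% an Sp1 site, 29.5% an ETS site, 6.75% an AP-1 site and 1.55% a cyclic AMP response element, so the cyclic AMP response element of Flt1 is the least common of the 5 motifs. A match describes letters in this window and not a bound site.

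After filters, 32051 of 34940 cells were kept, with 899 transcript counts (Vegfd) to 27703 (Flt1) per member, and fell into 13 classes named from marker genes and 3 unnamed clusters with 397 cells. Class names are rebuilt from markers and stand for "like" that cell type throughout. Trpm4, the gene targeted in KO mice, was measured at 5.99, 3.38 and 2.51 CPM (UMIs, or unique molecular identifiers, per 1000000 UMIs of the same cells, here all kept cells) in the KO sham, ligation 24 h and ligation 72 h libraries against 8.56, 5.5 and 4.18 CPM in the WT libraries of the same order. It was lower in KO in each pair but not at 0, and where these 3' counts lie relative to the targeted part was not tested. The KO ligation 72 h library stood apart, with a median of 1354 UMIs per kept cell against 3062 to 8009.5 in the others, and its classes carried RNA of other cell types. In its endothelial cells 14 of 14 monocyte/macrophage markers summed to 4546 CPM against 95.7 to 262 in the other 5 libraries, where 14 of 14 were detected except Ms4a7, at 0 in WT ligation 24 h, and 11 neutrophil markers summed to 3871 CPM against 108 to 376, with 2207 in KO ligation 24 h. In its fibroblasts the monocyte/macrophage markers summed to 8984 CPM against 42.7 to 538, with Ms4a7 at 0 in KO sham and KO ligation 24 h and Adgre1 at 0 in KO sham. Sub-clusters led by the markers of another class held 83.0% of its endothelial cells (7.01% to 21.7% elsewhere), 56.6% of its fibroblasts and 62.8% of its monocytes and macrophages, so the main ratios that rest on this library are also given without these mixed sub-clusters. Between 3 and 14 cell barcodes were shared by any pair of libraries, at most 0.206% of the barcodes of the first of the pair.

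Each member had its own distribution over the classes. With UMIs summed over the 6 libraries, Kdr was at 772 CPM in the 7836 endothelial cells, 314 CPM in the 270 lymphatic endothelial cells and 3.02 to 31.5 CPM in the other 11 classes. Flt1 was at 881 CPM in endothelial cells, and at 16.8 CPM in lymphatic endothelial cells, which was inside the range of the other 11 classes (3.02 to 55.2 CPM). Flt4, the lymphatic receptor, was at 405 CPM in lymphatic endothelial cells and 33.5 CPM in endothelial cells. In neutrophils, which were taken as the reference for free RNA, Kdr was at 0.478 to 16.6 CPM and Flt1 at 3.82 to 21.3 CPM over the libraries. A level of that size was not read as expression. Neutrophils held 167 Flt1 and 62 Kdr UMIs in all, and endothelial cells 26162 and 22930. Whether neutrophils express Flt1 themselves was not tested.

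The co-receptors were broader. Nrp1 was at 272 to 656 CPM in endothelial cells over the 6 libraries and at 265 to 356 CPM in pericytes over the 4 libraries with at least 50 of them, ranges that overlap. Fibroblasts (51.0 to 145 CPM), monocytes and macrophages (41.3 to 99.1 CPM) and smooth muscle cells (46.0 to 86.0 CPM) followed, and these 3 also overlap. Nrp2 was highest in lymphatic endothelial cells, at 305 CPM summed over the libraries, ahead of endothelial cells (108 to 192 CPM) and of monocytes and macrophages (47.1 to 70.1 CPM).

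The ligands were spread over several classes. Vegfa was at 20.9 to 144 CPM in fibroblasts, 23.0 to 43.4 CPM in neutrophils and 6.46 to 68.8 CPM in monocytes and macrophages, with no order that held over the libraries, and 0 Vegfa UMIs were found in 526 B cells, which allows up to 1.81 CPM. Vegfb, the ligand linked to metabolically active muscle, was at 255 to 639 CPM in the 4 libraries with at least 50 cardiomyocyte barcodes, above smooth muscle cells (91.0 to 105 CPM), pericytes (37.4 to 63.4 CPM) and fibroblasts (20.9 to 42.2 CPM). Cardiomyocytes were filtered out by mesh, so the 392 barcodes that carry their RNA are a remainder of uncertain form. Vegfc was at 28.3 to 64.0 CPM in endothelial cells and 15.2 to 33.7 CPM in fibroblasts, while in lymphatic endothelial cells 0 UMIs were found, which allows up to 1.87 CPM. Vegfd was a fibroblast gene, at 14.2 to 65.8 CPM there and 13.5 CPM in mesothelial cells summed over the libraries. Pgf was at 175 to 230 CPM in smooth muscle cells, 20.9 to 162 CPM in fibroblasts and, with the widest range of any class, 10.3 to 273 CPM in endothelial cells.

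**Figure D1:**
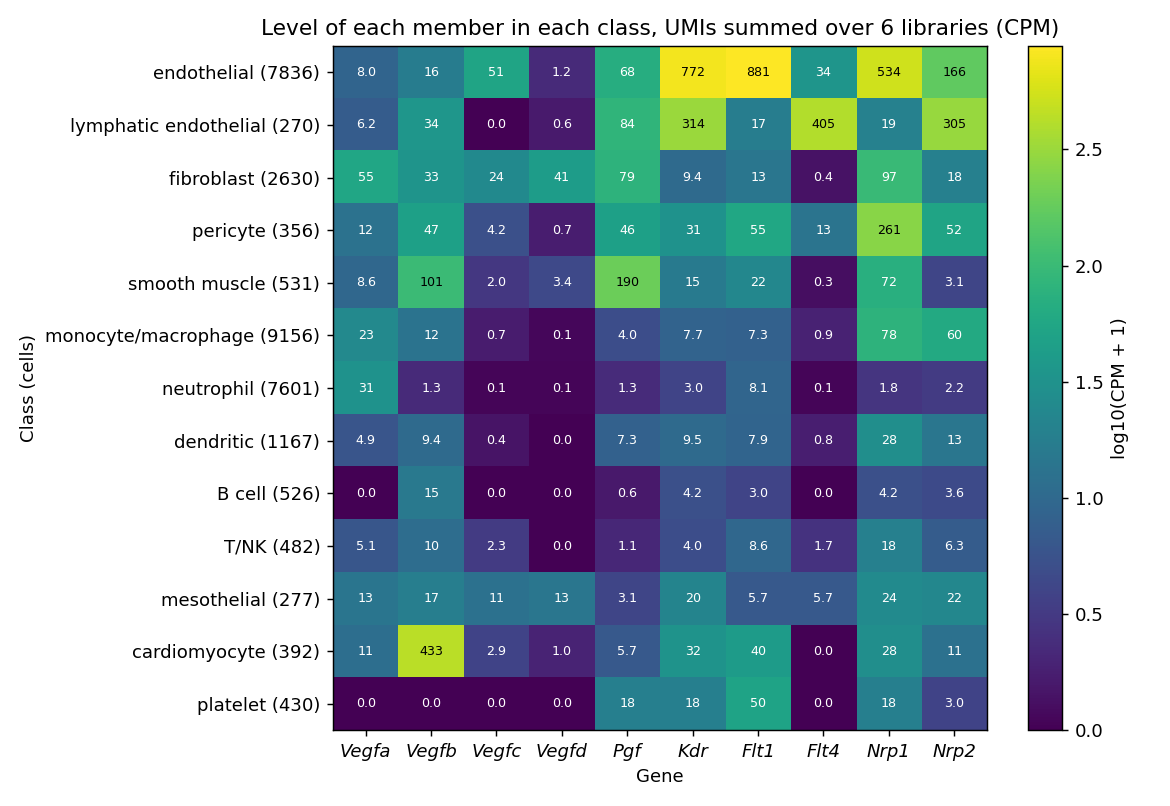
Level of the 10 genes (columns) in the 13 classes (rows, with their numbers of cells), from UMIs summed over the 6 libraries; colour is log10(CPM + 1) and the number in each cell is the CPM. Kdr (772 CPM) and Flt1 (881 CPM) stand out in endothelial cells, Flt4 (405 CPM) in lymphatic endothelial cells and Vegfb (433 CPM) in cardiomyocyte barcodes.

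The sorted pools differed in makeup, and the class that supplied a transcript differed between libraries. Endothelial cells supplied 28.4% and 40.3% of all UMIs of the WT and KO sham libraries but 3.66% and 6.26% of those at 72 h after ligation. They held 95.1% and 95.2% of Kdr UMIs in the shams and 70.5% and 59.9% at 72 h. Of Nrp1 UMIs, endothelial cells held 74.5% and 79.9% in the WT and KO shams and 13.9% and 19.9% at 72 h, where monocytes and macrophages held 76.4% and 55.1%. Of Pgf UMIs, fibroblasts held the larger part in the shams (57.6% WT, 44.9% KO, against 10.9% and 17.4% in endothelial cells), and endothelial cells held it after ligation (52.1% and 49.6% at 24 h, 65.5% and 47.1% at 72 h). Monocytes and macrophages held 31.9% to 59.0% of Vegfa UMIs and fibroblasts held 75.0% to 94.9% of Vegfd UMIs. These shares move with the numbers of cells caught and are not levels per cell.

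**Figure D2:**
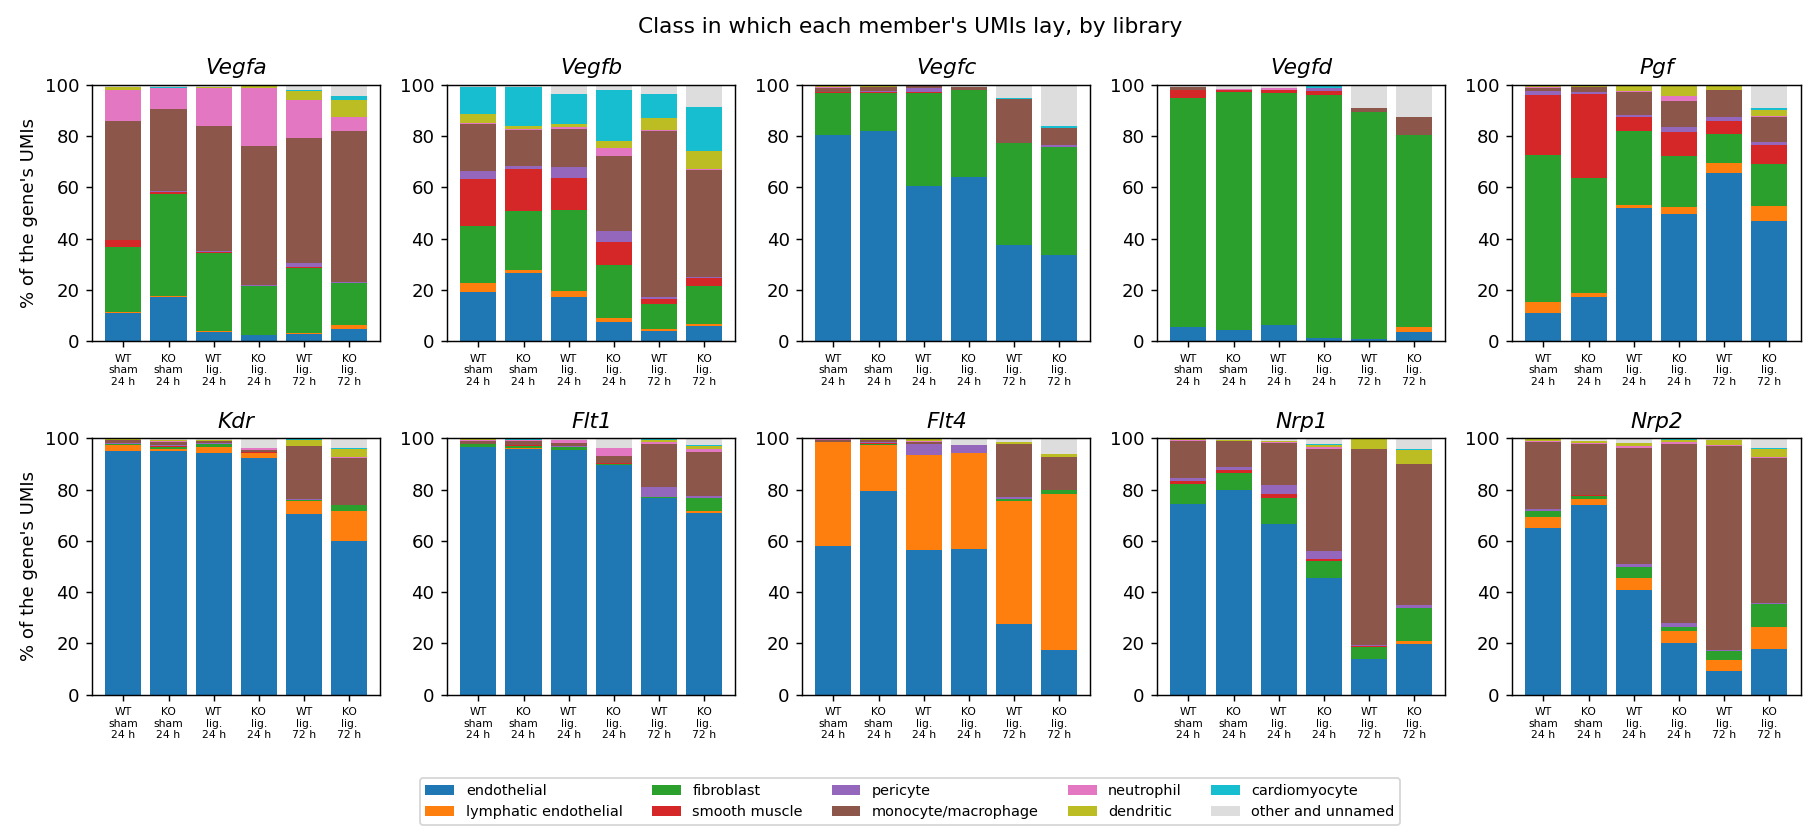
Percent of the UMIs of each gene (1 panel per gene) that lay in each class, in the 6 libraries (bars); colours are classes and grey is all other and unnamed cells. Kdr and Flt1 UMIs lie mainly in endothelial cells in every library, while most Nrp1 UMIs lie in endothelial cells in the shams and in monocytes and macrophages at 72 h after ligation.

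Differences between libraries were read within a class, for genes with at least 50 UMIs over both libraries and classes with at least 50 cells in both. In the library where it was higher, the gene also had to be at 10% or more of its level in its highest class (0.1 of that CPM). The lower library was not held to this rule, so its level can lie in the range of free RNA. Ratios past 2-fold that passed through the higher library alone include endothelial Pgf at 24 h, and fibroblast Nrp2 and dendritic Nrp1 from 24 h to 72 h in KO. Dendritic Pgf between KO and WT at 24 h is another. In WT, fibroblast Pgf from 24 h to 72 h also passed in this way. So did WT monocyte/macrophage Nrp1, both from sham to ligation 24 h and from 24 h to 72 h. These rules gave 144 ratios over 8 classes and 7 comparisons, of which 23 were past 2-fold, in fibroblasts, monocytes and macrophages, endothelial cells and dendritic cells. In the other 4 classes the ratios lay closer to 1: 0.628 to 1.52 in neutrophils, 0.535 to 1.28 in smooth muscle cells, 0.744 to 1.16 in pericytes and 0.627 to 0.673 in cardiomyocyte barcodes.

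Placental growth factor was the member that differed most in endothelial cells. Its level was 10.3 CPM (90 UMIs) in WT sham, 10.5 CPM (132) in KO sham, 237 CPM (773) in WT ligation 24 h, 179 CPM (427) in KO ligation 24 h, 273 CPM (430) in WT ligation 72 h and 139 CPM (176) in KO ligation 72 h. All 4 ligation libraries lay more than 10-fold above both shams. Both sham levels lay under 0.1 of the smooth muscle level, and the part of free RNA in them was not tested. At 24 h Pgf was 22.9-fold higher than sham in WT (interval 18.4 to 28.9) and 17.01-fold higher in KO (13.96 to 20.8). From 24 h to 72 h it was 1.15-fold higher in WT (1.02 to 1.30) and lower in KO (log2 ratio -0.37, -0.63 to -0.12, and -0.78 without mixed sub-clusters). It was the only endothelial member past 2-fold at 24 h, 1 of the 8 read in each genotype, where 3.88% of 10021 genes in WT and 3.72% in KO were at least 2-fold higher and 2.38% and 1.71% lower. The share of endothelial cells with a Pgf UMI was 1.59% and 1.66% in the WT and KO shams and 9.49% to 13.96% in the ligation libraries, while in neutrophils it was 0% to 0.451%. Median depth was 1185 to 3653.5 UMIs per endothelial cell and 1964 to 3158 per neutrophil. With each cell thinned to 1000 UMIs, which kept 2257 of 2335 cells in WT sham, 3030 of 3080 in KO sham, 656 of 738, 675 of 759 and 234 of 255 in the next 3 libraries and 409 of 669 in KO ligation 72 h, the endothelial shares were 0.620% and 0.594% in the shams and 5.56% to 8.99% after ligation.

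Within the endothelium, Pgf lay in few cells. In a sub-cluster of 1051 cells led by AA467197, Tubb6, Plaur, Adamts4 and Apln and named angiogenic from its markers, Pgf was at 37.9 CPM in WT sham, 44.5 in KO sham, 591 in WT ligation 24 h, 428 in KO ligation 24 h, 447 in WT ligation 72 h and 211 in KO ligation 72 h (30 cells). Both shams were below all 4 ligation libraries, and within this sub-cluster Pgf was 15.6-fold higher at 24 h in WT (11.3 to 22.2) and 9.62-fold higher in KO (7.43 to 12.6). With finer sub-clusters (resolution 1) the KO ratio was 3.04 and WT sham had too few cells for a ratio. The sub-cluster held 94.8% of endothelial Pgf UMIs in WT ligation 24 h, 75.9% in KO ligation 24 h and 98.1% in WT ligation 72 h. In the shams it held 42.2% and 54.6%, and a sub-cluster led by Adm, Kit and Trp53i11 held 31.1% and 25.8%. In capillary-like cells, the most numerous sub-cluster (3173 cells), Pgf was at 1.0 CPM over the 6 libraries. In KO ligation 72 h 52.3% of endothelial Pgf UMIs lay in a mixed sub-cluster led by Lyz2, Fcer1g and Tyrobp.

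Outside the endothelium Pgf went another way. In fibroblasts it was at 116 CPM (474 UMIs) in WT sham, 76.6 (341) in KO sham, 162 (428) in WT ligation 24 h, 75.1 (170) in KO ligation 24 h, 22.4 (73) in WT ligation 72 h and 20.9 (62) in KO ligation 72 h, with both 72 h libraries below the other 4. From 24 h to 72 h it was 7.22-fold lower in WT and 3.6-fold lower in KO (2.44-fold without mixed sub-clusters). In smooth muscle cells Pgf was at 175, 180, 196 and 230 CPM in WT sham, KO sham, WT ligation 24 h and KO ligation 24 h, and each interval of its ratios there included 1.

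**Figure D3:**
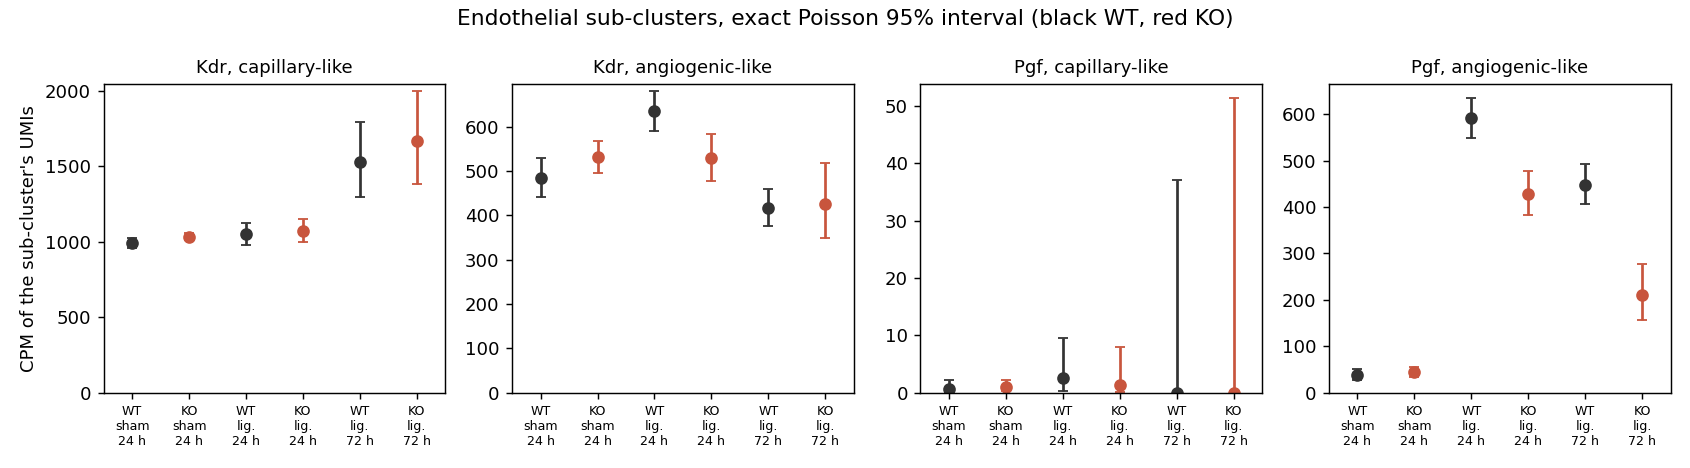
Level in CPM of Kdr and Pgf in the capillary-like and the angiogenic-like endothelial sub-clusters, by library (horizontal axis; black points WT, red points KO; bars are exact Poisson 95% intervals; each panel has its own scale). Pgf in the angiogenic-like cells is 37.9 and 44.5 CPM in the shams and 211 to 591 CPM after ligation, while Kdr in capillary-like cells is 994 to 1071 CPM up to 24 h and 1528 and 1669 CPM at 72 h.

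Vegfa, the central ligand, was higher at 24 h after ligation in fibroblasts and in monocytes and macrophages of both genotypes, and lower again at 72 h. In fibroblasts it was at 31.6 CPM (129 UMIs) in WT sham, 40.0 (178) in KO sham, 144 (381) in WT ligation 24 h, 103 (233) in KO ligation 24 h, 30.1 (98) in WT ligation 72 h and 20.9 (62) in KO ligation 72 h. Only the 24 h ligation libraries stood above the rest. The ratio to sham was 4.57 in WT (3.73 to 5.62) and 2.58 in KO (2.11 to 3.15), and at 72 h Vegfa was 4.79-fold lower than at 24 h in WT and 4.93-fold lower in KO (4.61-fold without mixed sub-clusters). A single cell held 21.0% of the 233 Vegfa UMIs of KO ligation 24 h fibroblasts. Most of the 24 h signal came from a sub-cluster led by the chemokines Cxcl5 and Cxcl1 and by Mt2, which held 61.2% of fibroblast Vegfa UMIs in WT and 86.3% in KO ligation 24 h, at 202 CPM (58 cells) and 152 CPM (67 cells). It made up 5.3% and 6.93% of fibroblasts in the WT and KO shams and 28.7% and 39.2% at ligation 24 h. The part of this makeup in the ratios of the whole class was not tested. In KO sham the 32 cells of this sub-cluster had 50.1 CPM, and fibroblasts led by Dkk3 and Wif1 held 44.2% and 51.7% of Vegfa UMIs in the WT and KO shams.

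In monocytes and macrophages Vegfa was at 20.8 CPM (235 UMIs) in WT sham, 16.1 (143) in KO sham, 68.8 (609) in WT ligation 24 h, 34.7 (658) in KO ligation 24 h, 6.46 (188) in WT ligation 72 h and 21.0 (222) in KO ligation 72 h. The WT ligation 24 h library was highest and WT ligation 72 h lowest, with the other 4 libraries between them. Relative to sham, Vegfa at 24 h was 3.32-fold higher in WT (2.85 to 3.87) and 2.15-fold higher in KO (1.80 to 2.60). At 72 h it was 10.7-fold lower than at 24 h in WT and 1.65-fold lower in KO (1.49-fold without mixed sub-clusters). Macrophages led by Cxcl3, Ccl2, Arg1 and Hilpda and named infarct macrophage-like from markers had 14.2, 14.04, 82.5, 46.3, 26.3 and 57.4 CPM in the order of libraries used above, and within them the KO intervals at 24 h (42.2 to 50.7) and 72 h (44.4 to 73.0) overlap. They made up 17.9% and 21.9% of monocytes and macrophages in the WT and KO shams. The shares were 41.0% and 51.3% in WT and KO ligation 24 h and 7.94% and 4.34% at 72 h. The part of this makeup in the 24 h and 72 h ratios was not tested. With a further sub-cluster led by Ccl24, Arg1 and Ltc4s they held most of the class's Vegfa UMIs at 24 h: 50.6% and 33.8% in WT, 71.3% and 17.5% in KO. This further sub-cluster got the same infarct macrophage-like name from markers but was more frequent in the shams. It made up 31.6% and 24.4% of the class in the WT and KO shams and 16.7% and 6.78% at ligation 24 h. With both sub-clusters of this name pooled, Vegfa was at 35.5 CPM in WT sham and 95.9 in WT ligation 24 h (2.70-fold, 2.3 to 3.2). The KO values were 21.8 and 50.5 CPM (2.32-fold, 1.9 to 2.9). Each pooled level lay above that of the Cxcl3-led cells alone, so the Ccl24-led cells had the higher Vegfa level in these 4 libraries. Classical monocyte-like cells were lower, at 0.573 CPM in WT sham, 0 UMIs in the 111 cells of KO sham and 5.03 to 9.72 CPM in the other libraries except KO ligation 72 h (34.4 CPM).

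In neutrophils Vegfa differed less between libraries in CPM. It was at 28.5 CPM (61 UMIs) in WT sham, 25.2 (38) in KO sham, 43.4 (187) in WT ligation 24 h, 28.6 (275) in KO ligation 24 h, 27.3 (57) in WT ligation 72 h and 23.0 (20) in KO ligation 72 h. WT ligation 24 h was the highest, 1.52-fold above WT sham (1.14 to 2.07), and the KO ratio was 1.13 (0.804 to 1.63). From 24 h to 72 h the log2 ratio was -0.67 in WT and -0.32 in KO. The medians of all neutrophil genes were 0.55 and 0.52, with 32.3% and 29.4% of genes at least 2-fold higher. A sub-cluster named Siglecf neutrophil-like rose from 0% to 58.4% of neutrophils in WT and from 0.26% to 65.0% in KO. The part of this makeup in the Vegfa ratios was not tested. In endothelial cells Vegfa was at 6.23 to 14.2 CPM, from 11 to 78 UMIs per library.

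**Figure D4:**
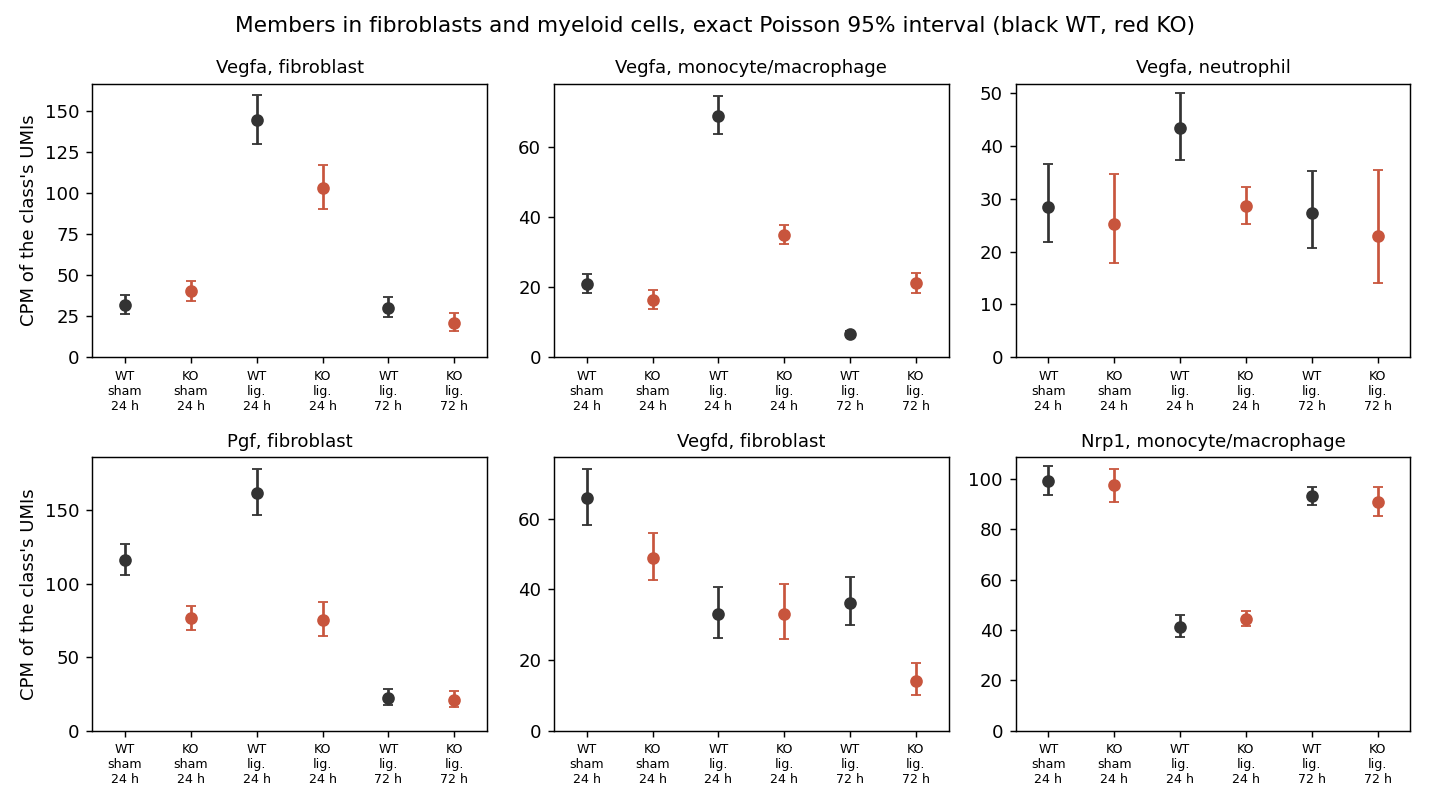
Level in CPM of Vegfa in fibroblasts, monocytes and macrophages and neutrophils, of Pgf and Vegfd in fibroblasts, and of Nrp1 in monocytes and macrophages, by library (black points WT, red points KO; bars are exact Poisson 95% intervals; each panel has its own scale). Vegfa peaks at ligation 24 h in fibroblasts (144 CPM WT, 103 CPM KO) and in monocytes and macrophages (68.8 and 34.7 CPM), where Nrp1 is at its lowest (41.3 and 44.4 CPM).

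The other 3 ligands showed smaller differences. Vegfb in fibroblasts was at 34.2, 42.2, 37.4, 35.4, 23.7 and 20.9 CPM in the same order of libraries, with the 72 h pair lowest; the WT ratio of 72 h to 24 h was 0.632 (0.463 to 0.860). In smooth muscle cells it was at 105, 96.9, 91.0 and 101 CPM in the 4 libraries with enough cells, with every interval including 1. Cardiomyocyte barcodes had 639 CPM in KO sham (127 UMIs), 401 in KO ligation 24 h (78), 378 in WT ligation 72 h (74) and 255 in KO ligation 72 h (71), so KO ligation 24 h was at 0.627 of KO sham (0.467 to 0.838).

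Vegfc, a ligand of VEGFR3 and VEGFR2, was carried in endothelium mainly by arterial-like cells and by a sub-cluster led by Nr2f2, Prss23 and Vcam1. Over all endothelial cells it was at 64.0 CPM (557 UMIs), 50.4 (631), 45.7 (149), 40.3 (96), 33.6 (53) and 28.3 (36), with the shams highest. It was 1.40-fold lower at 24 h than in sham in WT (ratio 0.714, 0.592 to 0.857) and 1.25-fold lower in KO (0.80, 0.638 to 0.993). Within the arterial-like sub-cluster it was at 210, 194, 195 and 222 CPM in the shams and the 24 h ligation libraries, which did not separate, and the arterial-like cells held 65.4% and 50.1% of endothelial Vegfc UMIs in the shams and 40.3% and 44.8% at 24 h. The Nr2f2-led cells had 154 and 148 CPM in the shams. In fibroblasts Vegfc was at 17.2 and 15.2 CPM in WT and KO at 72 h and at 22.5 to 33.7 CPM in the other libraries.

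Vegfd in fibroblasts was at 65.8 CPM (269 UMIs) in WT sham, 48.9 (218) in KO sham, 32.9 (87) in WT ligation 24 h, 33.2 (75) in KO ligation 24 h, 36.3 (118) in WT ligation 72 h and 14.2 (42) in KO ligation 72 h. Both shams lay above all 4 ligation libraries. At 24 h it was 2.0-fold lower than sham in WT (ratio 0.5001, just short of the 2-fold mark; 0.388 to 0.639) and 1.48-fold lower in KO (0.677, 0.514 to 0.884). In a fibroblast sub-cluster led by Gsn, Hsd11b1 and Dpep1, Vegfd was at 118 and 110 CPM in the shams and 87.1 and 89.0 CPM at 24 h.

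Of the kinases, Kdr was close to its sham level at 24 h and lower at 72 h when all endothelial cells were summed. It was at 792 CPM (6893 UMIs) in WT sham, 850 (10635) in KO sham, 719 (2341) in WT ligation 24 h, 725 (1726) in KO ligation 24 h, 527 (831) in WT ligation 72 h and 397 (504) in KO ligation 72 h. The 72 h libraries were the lowest in both genotypes. The ratio to sham at 24 h was 0.907 in WT (0.865 to 0.951) and 0.853 in KO (0.810 to 0.898), and that of 72 h to 24 h was 0.734 in WT (0.677 to 0.795) and 0.547 in KO (0.495 to 0.605; 0.863 without mixed sub-clusters). The sum hides an opposite order within capillary-like cells, where Kdr was at 994, 1035, 1049 and 1071 CPM in the shams and at 24 h, and at 1528 CPM (1295 to 1792, 45 cells) and 1669 CPM (1384 to 1996, 35 cells) in WT and KO at 72 h. Capillary-like cells made up 43.7% and 53.0% of endothelial cells in the WT and KO shams, 25.5% and 33.3% at ligation 24 h and 17.6% and 5.23% at 72 h, and the mixed sub-cluster led by Lyz2, Fcer1g and Tyrobp made up 60.2% in KO ligation 72 h. The part of this makeup in the summed level was not tested. In the angiogenic-like sub-cluster Kdr was at 416 to 634 CPM in all 6 libraries, and in endocardial-like cells at 165 to 167 CPM in the 3 libraries with at least 30 of them.

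Flt1 was lowest in the 72 h libraries. Its level was 977 CPM (8502 UMIs) in WT sham, 937 (11722) in KO sham, 871 (2839) in WT ligation 24 h, 811 (1930) in KO ligation 24 h, 440 (693) in WT ligation 72 h and 375 (476) in KO ligation 72 h. The 4 earlier libraries lay within 811 to 977 CPM and both 72 h libraries lay below that range. At 72 h Flt1 was 1.98-fold lower than at 24 h in WT (ratio 0.505, 0.464 to 0.549) and 2.16-fold lower in KO (0.462, 0.417 to 0.511), but without mixed sub-clusters the KO ratio was 0.807. This was the only endothelial member past 2-fold at 72 h, 1 of the 7 read in KO and 0 of the 7 read in WT. In the KO comparison 6.59% of genes were at least 2-fold lower and 5.1% higher, in the WT comparison 8.25% and 2.87%, and the median log2 ratio of all genes was -0.14 and -0.16. In capillary-like cells Flt1 was at 849 to 1040 CPM in all 6 libraries, and in the angiogenic-like sub-cluster at 784, 791, 793, 631, 361 and 447 CPM, lowest in the 72 h pair.

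Flt4 in endothelial cells was at 32.0 CPM (278 UMIs), 32.0 (400), 37.1 (121), 43.3 (103), 38.1 (60) and 26.8 (34) in the order of libraries used above. Its ratio to sham at 24 h was 1.16 in WT (0.931 to 1.44) and 1.35 in KO (1.08 to 1.69). In lymphatic endothelial cells it was at 417, 397, 352, 548 and 655 CPM in WT sham, KO sham, WT ligation 24 h, KO ligation 24 h and WT ligation 72 h, from 15 to 42 cells each, and at 286 CPM in the 152 cells of KO ligation 72 h. With so few cells no ratio was read in this class, whose other kinase, Kdr, was at 240 to 388 CPM.

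**Figure D5:**
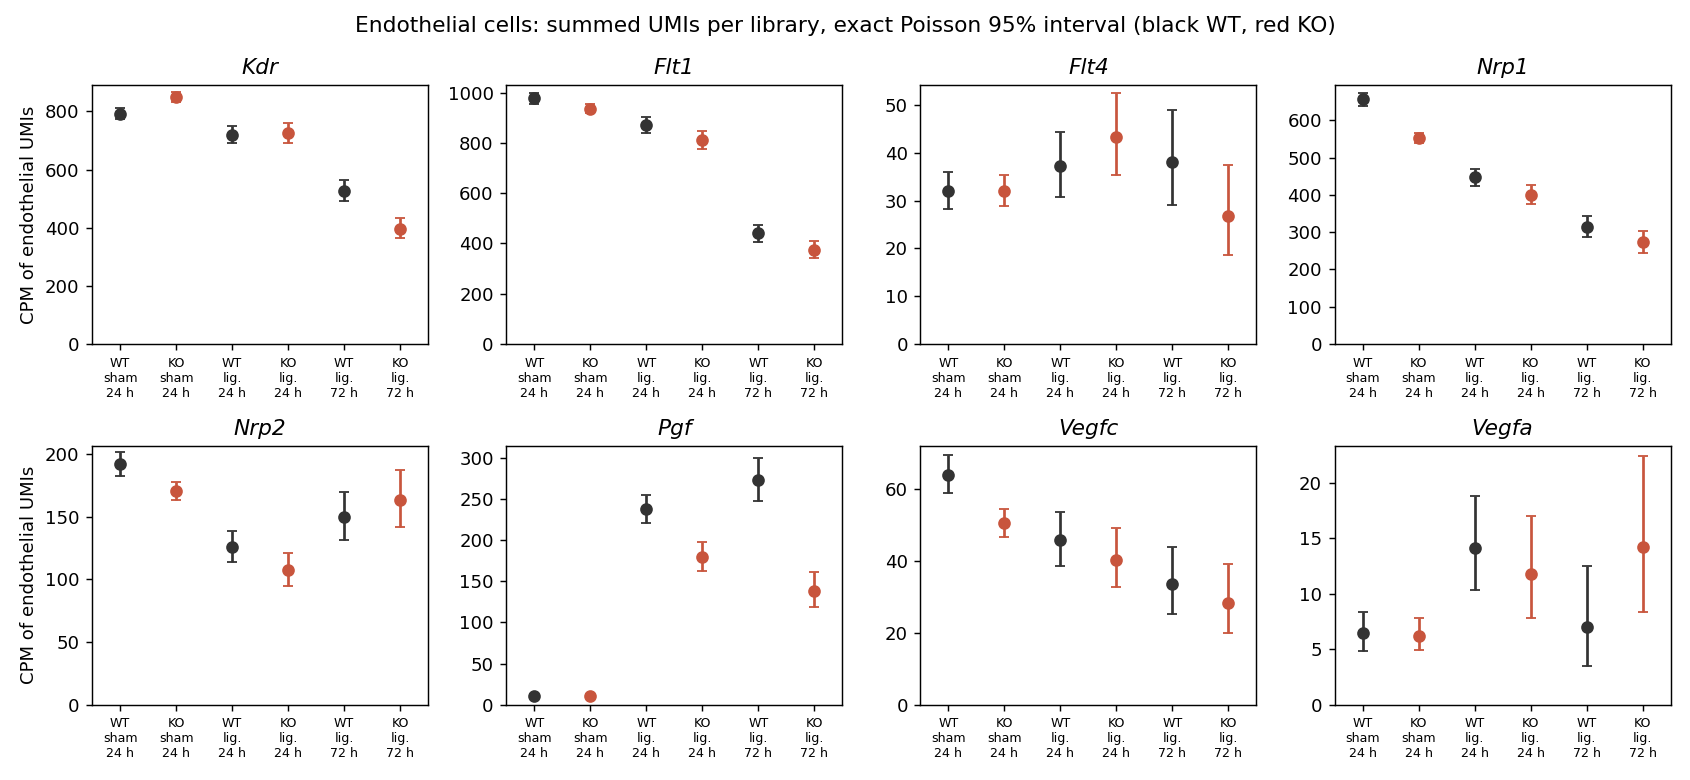
Level in CPM of 8 members in endothelial cells, 1 panel per gene, by library (black points WT, red points KO; bars are exact Poisson 95% intervals; each panel has its own scale). Pgf is 10.3 and 10.5 CPM in the shams and 139 to 273 CPM after ligation, while Kdr and Flt1 are lowest in the 72 h libraries.

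Nrp1, the co-receptor of VEGFR2 in vessels, was lower in endothelial cells after ligation. It was at 656 CPM (5707 UMIs) in WT sham, 552 (6911) in KO sham, 447 (1456) in WT ligation 24 h, 401 (954) in KO ligation 24 h, 314 (494) in WT ligation 72 h and 272 (346) in KO ligation 72 h. With all cells summed, KO was below WT in each pair. The ratio to sham at 24 h was 0.681 in WT (0.643 to 0.722) and 0.726 in KO (0.678 to 0.777), and that of 72 h to 24 h was 0.702 in WT and 0.680 in KO (1.11 in KO without mixed sub-clusters). In capillary-like cells it was at 684, 590, 562 and 544 CPM in the shams and at 24 h but at 1006 and 1349 CPM at 72 h, where Kdr was also highest in those cells.

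Nrp1 in monocytes and macrophages took a course of its own. It was at 99.1 CPM (1122 UMIs) in WT sham, 97.3 (863) in KO sham, 41.3 (366) in WT ligation 24 h, 44.4 (840) in KO ligation 24 h, 93.2 (2713) in WT ligation 72 h and 90.7 (959) in KO ligation 72 h. The 2 libraries at 24 h after ligation were low, and WT and KO were close in every pair, with ratios of 0.974 to 1.07. Nrp1 was 2.40-fold lower at 24 h than in sham in WT and 2.19-fold lower in KO, and from 24 h to 72 h it was 2.25-fold higher in WT (2.02 to 2.52) and 2.05-fold higher in KO (1.86 to 2.25), or 1.98-fold in KO without mixed sub-clusters. Resident macrophage-like cells had 230 and 195 CPM in the shams and 117 and 149 CPM at 24 h, and lipid-handling macrophage-like cells, found at 72 h, had 136 CPM in WT and 144 CPM in KO. The infarct macrophage-like cells that held most of the class's Vegfa UMIs at ligation 24 h had Nrp1 at 99.6 and 68.6 CPM in the shams and 27.8 and 34.5 CPM at 24 h. Fibroblast Nrp1 was at 145, 125, 86.2, 63.2, 51.0 and 74.5 CPM, with both shams highest, and dendritic cell Nrp1 was 3.22-fold higher in KO at 72 h than at 24 h (90 against 21 UMIs), the only member read there, beside 3.07% of genes.

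Nrp2, which also serves VEGFR3 in lymphatic and venous vessels, was lower in endothelial cells at 24 h in both genotypes. It was at 192 CPM (1671 UMIs) in WT sham, 170 (2133) in KO sham, 126 (411) in WT ligation 24 h, 108 (256) in KO ligation 24 h, 150 (236) in WT ligation 72 h and 164 (208) in KO ligation 72 h. The 24 h ligation libraries were the lowest. The ratio to sham was 0.657 in WT (0.588 to 0.732) and 0.631 in KO (0.552 to 0.719). From 24 h to 72 h it was 1.19-fold higher in WT (1.01 to 1.40) and 1.52-fold higher in KO (1.26 to 1.84), or 2.44-fold higher in KO without mixed sub-clusters. In fibroblasts Nrp2 was at 14.2, 8.08, 17.02, 8.84, 28.3 and 36.4 CPM (20 to 108 UMIs), highest in the 72 h pair; from 24 h it was 4.12-fold higher in KO (2.54 to 7.01; 3.93-fold without mixed sub-clusters) and 1.66-fold higher in WT, where the ratio was 2.76 without mixed sub-clusters. In monocytes and macrophages it was at 47.1 to 70.1 CPM, with ratios between 0.725 and 1.35 in all 7 comparisons.

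The counts of members past 2-fold in stromal and myeloid cells are set beside the share of all genes past 2-fold. In fibroblasts at 24 h, 1 of 7 members in WT and 1 of 5 in KO was past 2-fold higher (Vegfa in both), beside 4.83% and 4.19% of all genes higher and 4.23% and 9.79% lower. From 24 h to 72 h 2 of 7 members were past 2-fold lower in WT (Vegfa and Pgf), and in KO 3 of 6 were lower (Vegfa, Pgf and Vegfd) and 1 higher (Nrp2). Without mixed sub-clusters the KO ratio of Vegfd was 0.671 and no longer past 2-fold. The background was 15.9% of genes lower and 6.07% higher in WT, and 8.31% lower and 10.2% higher in KO. The median log2 ratio of the members read was -0.76 in WT and -0.90 in KO, and that of all genes -0.27 and -0.18. In monocytes and macrophages at 24 h, 1 of 3 members was higher (Vegfa) and 1 lower (Nrp1) in both genotypes, with 2.54% of genes higher and 3.86% lower in WT, and 1.64% higher and 7.4% lower in KO. From 24 h to 72 h 1 of 3 members was past 2-fold higher (Nrp1) in both, beside 11.8% of genes in WT and 9.25% in KO, and 1 was lower in WT (Vegfa) and 0 in KO, beside 7.28% and 2.92%.

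Comparing KO with WT at matched times asked whether the targeting of Trpm4 goes with another level of the VEGF system, and in endothelial cells no member was past 2-fold in any of the 3 pairs, 0 of 7 in sham, 0 of 8 at ligation 24 h and 0 of 7 at ligation 72 h. The background was 0.397% of genes higher and 1.1% lower in sham, 1.17% and 1.12% at 24 h, and 3.87% and 1.34% at 72 h. In sham, endothelial Vegfc was 1.27-fold lower in KO (ratio 0.787, 0.702 to 0.884), Nrp1 1.19-fold lower (0.842, 0.813 to 0.872) and Nrp2 1.13-fold lower (0.887, 0.832 to 0.946), while Kdr was 1.07-fold higher (1.04 to 1.11) and Flt1 and Flt4 were at 0.958 and 1.0 of WT. Endothelial Pgf in KO was at 0.756 of WT at 24 h (0.670 to 0.852) and at 0.508 of WT at 72 h (0.424 to 0.607). Without mixed sub-clusters the 72 h ratio was 0.345, from 53 UMIs in KO and 424 in WT, and the kinases and Nrp1, which were 0.752 (Kdr), 0.852 (Flt1) and 0.869 (Nrp1) of WT with all cells, became 1.18, 1.42 and 1.36. How far the RNA of other classes in KO ligation 72 h accounts for the all-cell values was not tested beyond these recalculations.

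In fibroblasts 1 of 7 members was past 2-fold lower in KO at 24 h, beside 2.62% of genes lower and 0.502% higher. This was Pgf, 2.15-fold lower (ratio 0.464, 0.386 to 0.556). It was also 1.51-fold lower in KO sham (0.660, 0.573 to 0.761). At 72 h 1 of 5 was lower, beside 3.12% of genes lower and 9.18% higher: Vegfd, 2.56-fold lower, or 1.84-fold without mixed sub-clusters, and in sham 0 of 5 were past 2-fold (0.94% of genes higher, 0.636% lower). Fibroblast Vegfa was 1.27-fold higher in KO sham (1.004 to 1.60) but at 0.715 of WT at 24 h (0.605 to 0.843) and 0.694 at 72 h (0.497 to 0.964), or 0.750 at 72 h without mixed sub-clusters (0.492 to 1.12).

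In monocytes and macrophages the order of WT and KO for Vegfa differed between times. KO was at 0.777 of WT in sham (0.627 to 0.961) and at 0.505 at 24 h (0.452 to 0.565), and at 72 h it was 3.25-fold above WT (2.67 to 3.97). At 72 h this was 1 of 3 members past 2-fold higher, beside 3.74% of genes higher and 0.597% lower, and in sham and at 24 h 0 of 3 were past it (2.04% higher and 0.349% lower in sham, 0.464% and 1.36% at 24 h). Without mixed sub-clusters the 72 h ratio was 3.73. Neutrophils also contain Vegfa, and the 11 neutrophil markers, all detected in each library, summed to 284 CPM in the monocytes and macrophages of WT ligation 72 h and 2322 CPM in those of KO ligation 72 h, against 2713 (WT) and 3586 (KO) at 24 h and 885 and 954 in the shams. Their part in the ratio was not tested. In both infarct macrophage-like sub-clusters pooled (882 KO and 400 WT cells), the 24 h ratio of KO to WT was 0.527. The shares of these sub-clusters in the pool differed between WT and KO. The remaining genotype difference past 2-fold was Pgf in dendritic cells at 24 h, 2.05-fold lower in KO from 34 and 25 UMIs, of which 1 cell held 44.0% in WT; it was 1 of 1 member read there, beside 1.82% of genes.

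Genes around the VEGF system were read from lists. Of 12 VEGF response and tip cell genes, 10 were measured in endothelial cells at 24 h, and 5 were past 2-fold higher and 1 lower in WT, and 4 higher and 0 lower in KO. Of all endothelial genes 3.88% were past 2-fold higher and 2.38% lower in WT, and 3.72% and 1.71% in KO. Plaur, the urokinase receptor, was 10.5-fold higher in WT and 6.04-fold in KO, Apln, the tip cell peptide apelin, 9.31- and 6.73-fold, and Angpt2, the vessel-destabilizing ligand of Tie2, 2.70- and 4.24-fold. The median log2 ratio of the list was 0.92 in WT and 0.88 in KO, and that of all genes 0.03 and 0.02. Esm1, an endothelial proteoglycan known as a VEGF target, was at 6.44 CPM in WT sham, 1.53 in WT ligation 24 h, 65.4 in WT ligation 72 h and 5.51 in KO ligation 72 h. Between KO and WT at 72 h, 3 of 10 list genes were past 2-fold lower in KO, Esm1 (log2 ratio -3.57), Angpt2 (-1.86) and Apln (-1.34), and 1 higher, Nr4a1 (1.07). Of all genes 1.34% were lower and 3.87% higher there, and 83.0% of the KO endothelial cells lay in mixed sub-clusters.

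Of 14 receptor signalling genes (among them Plcg1, Src, Nos3 and Ptprb), 12 were measured in endothelial cells and 0 were past 2-fold at 24 h in either genotype, with median log2 ratios of 0.05 and -0.13. Between 24 h and 72 h, 11 were measured in WT with 1 past 2-fold lower, Pik3ca (log2 ratio -1.01), and 10 in KO with 0 past it, and the medians of -0.47 and -0.62 lay below those of all genes (-0.16 and -0.14). Of all genes 8.25% were lower and 2.87% higher in WT, and 6.59% and 5.1% in KO. Of 12 neuropilin partners 7 were measured, and 2 were past 2-fold higher at 24 h in both genotypes, the semaphorins Sema3a (2.98-fold WT, 2.55-fold KO) and Sema3f (2.64- and 2.19-fold). Of the 8 genes that process VEGF-C and VEGF-D 5 were measured, and 1 was past 2-fold higher, the urokinase gene Plau (5.46-fold WT, 4.41-fold KO). For these lists at 24 h, the shares of all endothelial genes were 3.88% higher and 2.38% lower in WT, and 3.72% and 1.71% in KO.

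Genes induced by hypoxia, a known inducer of Vegfa, were read from a list of 15. In monocytes and macrophages at 24 h 8 of 13 measured were past 2-fold higher in WT and 10 of 15 in KO, with median log2 ratios of 1.27 and 1.45 and none lower, beside 2.54% and 1.64% of all genes higher and all-gene medians of -0.11 and -0.28. Egln3, a prolyl hydroxylase that senses oxygen, was 9.88-fold higher in WT and 8.12-fold in KO, and Hilpda, a lipid droplet protein, 5.06- and 4.6-fold. From 24 h to 72 h 9 of 15 were past 2-fold lower in WT and 8 of 15 in KO, with medians of -1.24 and -1.09, beside 7.28% and 2.92% of all genes lower and all-gene medians of 0.04 and 0.14. In WT 1 list gene was past 2-fold higher from 24 h to 72 h, the carbonic anhydrase Car9 (log2 ratio 2.68). Between KO and WT at 72 h 1 of 15 was past 2-fold, Ddit4 at 2.18-fold higher, beside 3.74% of all genes higher and 0.597% lower. The list median was 0.22, where Vegfa was 3.25-fold higher. In fibroblasts 6 of 13 were higher at 24 h in WT and 4 of 12 in KO, with Slc2a1, a glucose transporter, 11.2- and 6.43-fold higher, and in endothelial cells 6 of 14 and 4 of 13. Of all genes 4.83% (WT) and 4.19% (KO) were higher in fibroblasts, and 3.88% and 3.72% in endothelial cells.

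The genes whose levels ran most like each member were found over 56 sums of a class in a library, among 11372 genes, by Pearson's r of log2(CPM + 10). The sums share libraries and cell classes, so r describes a shared distribution over classes and carries no test. Kdr was most like Cdh5 and Emcn (r 0.97 for both) and Sox18 (0.97), and Flt1 most like Adgrl4 (0.97), Gpihbp1 and Cd300lg (both 0.96), all endothelial genes. Vegfc was most like Cd34 (0.94), Fam171a2 (0.94) and Cyp2d22 (0.93), and Vegfd most like Pcolce2, Sfrp1 and Svep1 (0.96 each). For Vegfb the likest were Mcrip2 (0.95), Habp4 and Apoo (both 0.93), and for Nrp1 Ctnnd1 (0.91), Stx12 and Sash1 (both 0.90). Likeness was lower for Pgf, with Synpo (0.88), Dusp8 and Ccn1 (both 0.86), for Flt4, with Nts (0.88), Cldn5 (0.86) and Klhl4 (0.85), for Nrp2, with Adam15, Hsd3b7 and Mlkl (0.80 each), and lowest for Vegfa, with Fndc3b (0.77), F3 (0.76) and Dram1 (0.75).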

How the data were processed

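The deposited files hold the authors' UMI counts per gene and cell. Per the file headers these come from Cell Ranger 6.0.0. The build named in the submitters' processing notes is mm10, and the annotation and filters are not given in the sources used here. Cells with at least 200 genes and at most 20% mitochondrial UMIs were kept. Scrublet (scanpy 1.11.5) found few doublets by its own threshold, so the highest-scoring 0.8% of cells per 1000 cells were removed. Log-normalized counts of 2000 variable genes, without the 10 members, gave 30 principal components and 37 Leiden clusters (resolution 1, leidenalg 0.10.2), named from fixed markers and, in 4 classes, sub-clustered at 0.5.

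UMIs were summed per class and library and divided by all UMIs of those cells (CPM). With 1 library per group there is no test: ratios carry the exact conditional Poisson 95% interval, shares the exact binomial one (scipy 1.17.1). UMIs of 1 cell are not independent, which these intervals leave out. On simulated counts for the endothelial WT ligation 24 h and WT sham libraries (10019 genes), 95.7% of intervals held the true ratio and 0.193% of unchanged genes passed 2-fold. These counts were drawn as independent Poisson counts, so this checks the calculation only. It leaves out clumping of UMIs in single cells and differences between pools of mice. The 10 members were always reported, list genes past 2-fold were named by size, at most 4 per list and comparison, and the 3 genes with the highest r were named per member, among genes with at least 500 UMIs. Members, lists and rules were chosen with earlier results of these data known. Gene positions come from GENCODE M21 (GRCm38) and upstream windows from RefSeq (GRCm38.p6). Alternatives changed the clustering, filters, doublet removal, scaling, thresholds and depth; leaving out mixed sub-clusters was added after seeing the data.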

Additional observations from a re-analysis of the deposited data

Results flagged for a closer look

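In 5 cases a difference between 2 libraries went one way under one condition and the opposite way under another, with intervals for counting error on opposite sides of 0. Whether the 2 differences differ was not tested, since each group is 1 library.

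Endothelial Pgf went from 24 h to 72 h with a log2 ratio of 0.20 in WT and -0.37 in KO. Endothelial Kdr in KO relative to WT was at 0.10 in sham and -0.41 at ligation 72 h, where it was 0.23 without mixed sub-clusters. Fibroblast Vegfa in KO relative to WT was at 0.34 in sham, -0.48 at ligation 24 h and -0.53 at ligation 72 h. For fibroblast Nrp1 the values were -0.21, -0.45 and 0.55. Vegfa in monocytes and macrophages was at -0.36, -0.99 and 1.70 in the same order. All 5 cases include at least 1 value from the shallow KO ligation 72 h library, and for fibroblast Vegfa the sham and 24 h values also lie on opposite sides of 0. Without mixed sub-clusters, the interval of the 72 h ratio of fibroblast Vegfa spanned no difference, as given above. For fibroblast Nrp1 no value without mixed sub-clusters is given here.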

How the results depend on the processing

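No ratio past 2-fold turned its direction under any alternative. Of the 23 ratios past 2-fold, 18 (each cell thinned to 1300 UMIs) to 23 (up to 10% mitochondrial UMIs, or members among the clustering genes) stayed past it in the same direction, 19 with CPM averaged over cells, scaled to the median gene or without mixed sub-clusters, and up to 11 others came past it. The sizes of the ratios were less stable. With thinning to 1300 UMIs, 60 of 144 ratios left the interval of the main setting, with a largest shift of 2.14 in log2. With CPM averaged over cells, 42 of 144 did, with a largest shift of 1.15. The log2 ratio of endothelial Pgf at 24 h was 4.31 to 5.35 in WT and 3.92 to 4.20 in KO.

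The count of endothelial members past 2-fold moved as follows. For WT at 24 h it was 2 instead of 1 with means over cells, without doublet removal or at 1.5-fold. For KO at 24 h it was 2 with at least 1500 UMIs per cell and 3 at 1.5-fold. For WT from 24 h to 72 h it was 1 instead of 0 with at least 1500 UMIs, means over cells, 10% mitochondrial UMIs or 1.5-fold, and 2 without doublet removal. For KO from 24 h to 72 h it was 0 instead of 1 with at least 1500 UMIs, scaling to the median gene or without mixed sub-clusters, 2 with means over cells and 4 at 1.5-fold. Between KO and WT it was 1 instead of 0 at ligation 24 h with means over cells; at ligation 72 h it was 1 at 20 counts, 1500 UMIs, 10% mitochondrial UMIs, 1.5-fold or without mixed sub-clusters, 2 with thinning and 3 with means over cells; in sham it stayed 0.

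No paired analysis was possible because each group is 1 library with no replicate numbers. Leaving out a replicate was not run for the same reason. Depth limits the KO ligation 72 h library and classes with few cells, such as lymphatic endothelial cells, of which 5 libraries held 15 to 42.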
